A study of Homo sapiens with 24 samples.

Results

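The genes described here encode the translation initiation factors (eIF) and elongation factors (eEF) of human cells, with the kinases, binding proteins and methyltransferases named after them. They were chosen by name alone: a symbol made of EIF and a digit from 1 to 6, or of EEF and the digit 1 or 2, followed by letters and an optional number. Of 38849 genes in the deposited table, 127 symbols fitted, 60 were pseudogene rows and were left out, and 67 members remained. A mean of at least 10 normalized counts over all libraries was reached by 64 members, which were tested among 12096 genes. The 3 members below it were EEF1A2, the tissue-restricted eEF1A, EIF4E3, a divergent cap-binding protein, and EIF1AY, a Y-linked copy whose level is not given. EEF2, the translocase, has a bare symbol that the naming rule does not take, and it is counted below among 36 other translation genes.

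The cells were HMLE, an immortalized human mammary epithelial cell line, with RBMS3, which encodes a protein that binds RNA, or with the bacterial enzyme LacZ as control. Each line was sampled at 0, 90, 180 and 360 min of actinomycin D at 10 µg/mL, a drug that blocks transcription, so that later samples show what remains of each transcript. There were 3 libraries for each line and time, 24 in all, made with a 3′ end method (QuantSeq) that reads near the poly(A) tail. The labels name neither a clone nor a vector for the lines, and separate cultures are not stated for the 3 libraries of a group. P-values here therefore measure the spread between libraries, which may be technical.

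Libraries summed to 6638187 to 8080428 normalized counts, with 14193 to 15697 genes above 0, and the members took 1.82% to 2.25% of that sum. RBMS3 itself stood at 75.7, 101 and 116 in the 0 min LacZ libraries and at 358, 254 and 203 in the 0 min RBMS3 libraries. The 5 mesenchymal markers summed to 3268 to 5593 in LacZ and 17248 to 22846 in RBMS3, while 6 epithelial markers summed to 8098 to 10474 and 1511 to 2402. The 5 basal mammary markers summed to 8843 to 11529 in LacZ cells at any time and to 9186 to 9337 in RBMS3 cells at 0 min, but to 2314 to 2913 in RBMS3 cells at 90 to 360 min. KRT14, a basal keratin, read 5902 to 6168 in RBMS3 cells at 0 min and 723 to 1198 later. KRT5 read 2437 to 2830 and 664 to 1122. The LacZ means of both keratins were not lower at 360 min than at 0 min. The other basal markers, TP63, LAMB3 and ITGB4, had means of 247, 2637 and 1353 in LacZ cells at 0 min. In RBMS3 cells at 0 min they were already lower, at 3.28, 471 and 80.4. LAMB3 then rose in RBMS3 cells to 806 at 90 min and was 535 at 360 min. COL1A2 read 626 to 718 in RBMS3 cells at 0 min and 217 to 298 later. The RBMS3 libraries at 0 min thus differed in these markers from the later ones, and the part of this in the changes from 0 min in RBMS3 cells, and in their difference from LacZ cells, was not tested. The 4 endothelial markers summed to at most 13.5, with CDH5 at 0 throughout, and of the leukocyte markers CD3E was at 0 in every library, PTPRC was above 0 in 1 and LYZ in 2, while CD68 read 18.2 to 55.9 in LacZ and 5.11 to 18.1 in RBMS3 cells. Every line difference below goes with this difference in epithelial and mesenchymal markers, and the part of either cannot be told apart from that of RBMS3. In bulk RNA, fewer cells of a type and less RNA per cell cannot be told apart either.

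Library 2 of LacZ at 0 min stood apart from its group. Its correlation with the other 2 libraries was 0.909 and 0.911, against 0.937 or more for every other pair within a group. EEF1A1, which delivers aminoacyl-tRNA to the ribosome and was the most abundant member, read 24048, 11243 and 26059 in that group. EIF4A3, a helicase of the exon junction complex, read 1032, 211 and 1157, and EIF5A, which relieves stalled ribosomes, read 3515, 1201 and 3472. Values without that library are given for the members named with it. From 0 to 180 min in LacZ cells, 15 of 23 calls were kept without it, 8 were lost and 7 gained. It also widened the spread shared by all groups: without it, 43 members were called between 0 and 360 min in RBMS3 cells, against 34 with it.

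Translation of most mRNAs starts when eIF4E binds the 5′ cap, joins the scaffold eIF4G and the helicase eIF4A as eIF4F, and recruits the small ribosomal subunit carrying eIF3 and the initiator tRNA held by eIF2. eIF1, eIF1A and eIF5 select the start codon, eIF5B joins the large subunit, and eIF2B reloads eIF2 with GTP. Kinases that phosphorylate eIF2α slow initiation by blocking eIF2B, and 4E-BP proteins slow it by occupying eIF4E. During elongation, eEF1A brings aminoacyl-tRNA and eEF1B recharges it. Many ribosomal protein and elongation factor mRNAs begin with a C followed by a run of pyrimidines (a 5′ TOP tract), which ties their translation and stability to mTOR signalling.

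The start-site windows of the members that differed between the lines at every time are shown because that tract lies at the very start of an mRNA. Each runs from 10 bases before the annotated start to 20 bases from it, 5′ to 3′ on the gene's strand, from RefSeq on GRCh38.p14, and capitals mark a C that follows a purine and is followed by at least 4 bases each C or T, beginning within 10 bases of the start. Where a window holds more than 1 such stretch, only the longest is marked, or the first of those equally long, as in EIF4EBP2. Only the gene's strand was searched. EIF4EBP1 also belongs to this set and is named only.
EIF3F (chr11:7987327-7987356, plus strand): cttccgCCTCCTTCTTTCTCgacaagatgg
EEF1B2 (chr2:206159599-206159628, plus strand): aagtggccccagcctcgaggccgggcgtct
EIF2AK4 (chr15:39934105-39934134, plus strand): gcccgtccccagcgcggagccccgccccgc
EIF4G2 (chr11:10807977-10808006, minus strand): tgtcggaagcaCTTCCCTaacttgcgcctg
EIF4A1 (chr17:7572815-7572844, plus strand): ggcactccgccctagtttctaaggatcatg
EIF4G1 (chr3:184314596-184314625, plus strand): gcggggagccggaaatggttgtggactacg
EIF4E2 (chr2:232550679-232550708, plus strand): agcggaagtcaCTCCCTgaggcagtggcga
EIF4EBP2 (chr10:70404135-70404164, plus strand): gCCTTCgcccgcttccggtcgtcgtcgtcg
The longest tract, 14 bases, was that of EIF3F, and tracts of 5 to 7 bases were present in members that were higher and in members that were lower in RBMS3 cells. Of 51 members with a RefSeq start, 11 held such a tract (21.57%), against 6783 of 27305 promoters (24.84%) and 40 of 68 cytosolic ribosomal protein genes (58.82%). The annotated start need not be the one these cells use, and a match is a description of letters only.

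The deposited values were divided by a length as well as by a library factor. In the 12 libraries whose transcript files could be assigned without doubt (LacZ 0 min and RBMS3 90, 180 and 360 min), the ratio of table value to estimated reads was compared over 8206 genes with at least 20 reads in each. Without a length term, 40.6% of the values came within 0.02 (log2) of 1 factor per library, and with the gene's mean effective transcript length 97.2% did. That length follows the estimated isoform mix and can vary between libraries although a 3′ method counts tags. The ratio varied over the 12 libraries by a median of 1.15-fold in the 54 members that could be measured, and by 1.25-fold in all genes.

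Of those members, 28 varied by at most 1.2-fold and 16 by more than 1.5-fold. EIF2AK1, an eIF2α kinase activated by heme shortage, shows the difference: its LacZ 0 min libraries read 896, 1727 and 1045 normalized counts and 154, 153 and 153 RPM, which are estimated reads scaled to the library's total. EEF2K, the kinase that inhibits eEF2, read 353, 66.9 and 252 normalized counts at 180 min in RBMS3 cells but 27.7, 30.4 and 28.2 RPM. EEF1A1 read 3708, 925 and 3998 RPM in the LacZ 0 min libraries. Its ratio varied by 1.896-fold, and still by 1.813-fold after the length term, so its table values were not rebuilt from these reads. The ratio varied by 2.75-fold to 7.78-fold in EIF5A2, EEF2K, EIF2B5, EIF2D, EIF4E and EIF4E2. In EIF2AK1, EIF2S3, EIF2A, EIF4ENIF1, EEF1A1, EIF4A2, EIF2S1, EIF2AK2, EIF3J and EIF2B4 it varied by 1.54-fold to 2.56-fold. How much of each difference below goes with it was not tested outside the 12 libraries. The ratio was not measured in 10 tested members, among them EIF3E, EIF3F, EIF3I, EIF3L, EIF4H and EIF6, because too few of their reads matched the annotation used.

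**Figure D1:**
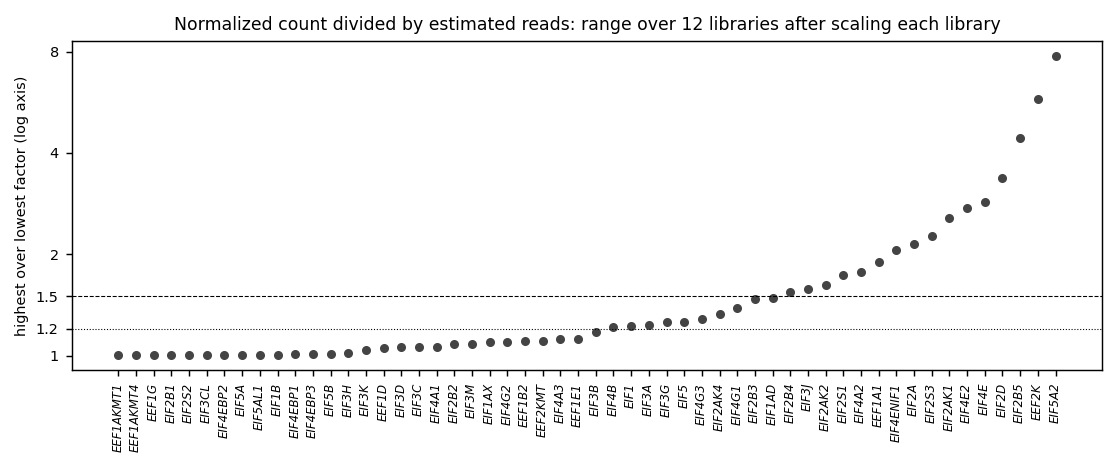
Range over 12 libraries of the ratio of normalized count to estimated reads, as highest over lowest on a log axis, for each of the 54 members that could be measured, after scaling each library. The dotted and dashed lines mark 1.2-fold and 1.5-fold, and 16 members lie above the latter, up to EIF5A2 at 7.78-fold.

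At 0 min, 13 members were higher and 19 lower in RBMS3 than in LacZ cells, where 18.6% and 18.9% of all genes tested were. Members had a median log2 difference of -0.08 against 0.01 over all genes. Here and below, called means an adjusted p under 0.05 in limma, with p-values adjusted over 12096 genes. Without LacZ library 2, 12 were higher and 14 lower, and 24 of the 32 calls were kept. With libraries rescaled to the ribosomal protein genes, which lowered the median of all genes to -0.29, the split became 5 higher and 29 lower. Where only the 6 libraries of the comparison were fitted, 6 were higher and 7 lower.

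After 90 min of actinomycin D the line difference was positive for 16 called members and negative for 6, with 14.9% and 15% of all genes. At 180 min 9 were higher and 9 lower (16.2% and 16.8% of all genes), and at 360 min 15 were higher and 8 lower (17.5% and 17.7%), a split of 8 and 12 after rescaling to the ribosomal protein genes and of 11 and 10 after rescaling to equal totals. The 4 comparisons use separate libraries. At all 4 times 5 members were called higher (8.78% of all genes were) and 4 were called lower (8.25%). After rescaling to the ribosomal protein genes EIF4G2 and EIF2AK4 were no longer called at 0 min (0.11 each), and the other 7 were called at all 4 times under that scaling and under equal totals. A further 16 were higher and 14 lower at some times only, 3 were called in both directions, and 22 were never called.

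**Figure D2:**
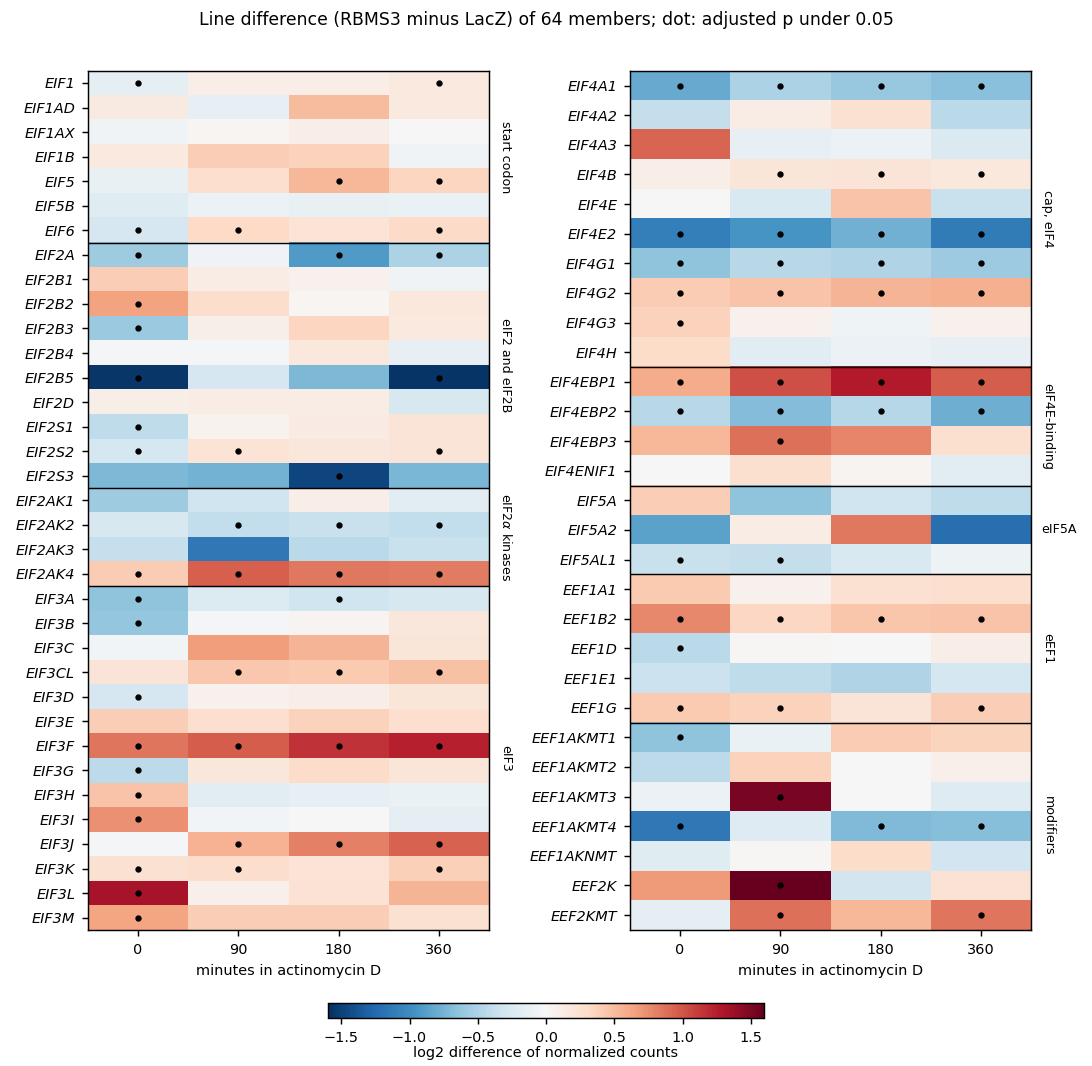
Log2 difference between RBMS3 and LacZ cells for 64 members at 4 times in actinomycin D, grouped by role, with red for higher and blue for lower in RBMS3 cells. Dots mark an adjusted p under 0.05 (limma); EIF3F, EIF4EBP1, EIF4G2, EEF1B2 and EIF2AK4 keep red dots throughout, and EIF4A1, EIF4G1, EIF4E2 and EIF4EBP2 keep blue ones.

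Among the cap-binding and eIF4 genes, 10 of which were tested, the helicase and the main scaffold of eIF4F were lower in RBMS3 cells at every time, while a second scaffold was higher. EIF4A1, the RNA helicase that unwinds 5′ leaders, read 6188, 4721 and 6474 in LacZ and 2838, 3685 and 3398 in RBMS3 cells at 0 min. After 360 min it read 9248, 8761 and 7298 against 5354, 5644 and 4869.6, and the groups did not overlap at any time. Its log2 differences were -0.80, -0.51, -0.60 and -0.67 at the 4 times (each SE 0.12, adjusted p from 1.6e-05 to 0.0023).

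EIF4G1, the scaffold that joins cap, helicase and eIF3, read 5789, 5802 and 5996 in LacZ and 3765, 3869.7 and 3611 in RBMS3 cells at 0 min. Its differences were -0.65, -0.45, -0.48 and -0.59 (SE 0.08, adjusted p at most 0.00028). Its 3 LacZ libraries at each time all lay above the RBMS3 ones, the closest being 5037 and 4077 at 360 min. Its ratio of table value to reads varied by 1.385-fold, and still by 1.257-fold after the length term. The line difference of EIF4G1 was not tested on reads.

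EIF4G2 (DAP5), a shorter scaffold without the eIF4E-binding site, went the other way. It read 6739.6, 4819.8 and 6839 in LacZ and 8427, 7590.1 and 8187 in RBMS3 cells at 0 min, and 7815, 8085 and 9133 against 12944, 11588 and 12479.7 at 360 min. The differences were 0.41, 0.45, 0.54 and 0.57 (SE 0.11, adjusted p at most 0.0045), and 0.25 at 0 min without LacZ library 2 (adjusted p = 0.028). EIF4G3, the third scaffold, was called at 0 min only (0.36, adjusted p = 0.047), a call lost on leaving out any of 11 libraries in turn.

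EIF4E2 (4EHP), a cap-binding protein that represses translation, was lower in RBMS3 cells at every time. It read 1071, 2505 and 1253 in LacZ and 729, 735 and 646 in RBMS3 cells at 0 min, a difference of -1.09 ± 0.23 (SE), or -0.72 without LacZ library 2. At 360 min it read 825, 907 and 670.2 against 278, 430.3 and 408 (-1.12 ± 0.23). EIF4E2 is one of the members with an unsteady length term, and reads were used for both lines at no shared time, so the difference was not tested on reads. EIF4E, the main cap-binding protein, was not called at any time, with differences from -0.36 to 0.46 (SE 0.26). EIF4A2 and EIF4A3, the other helicases, and EIF4H were not called either. EIF4B, which stimulates the helicase, was higher by 0.20, 0.21 and 0.17 at 90, 180 and 360 min (SE 0.06), the last at adjusted p = 0.05 and lost on leaving out any of 19 libraries in turn.

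**Figure D3:**
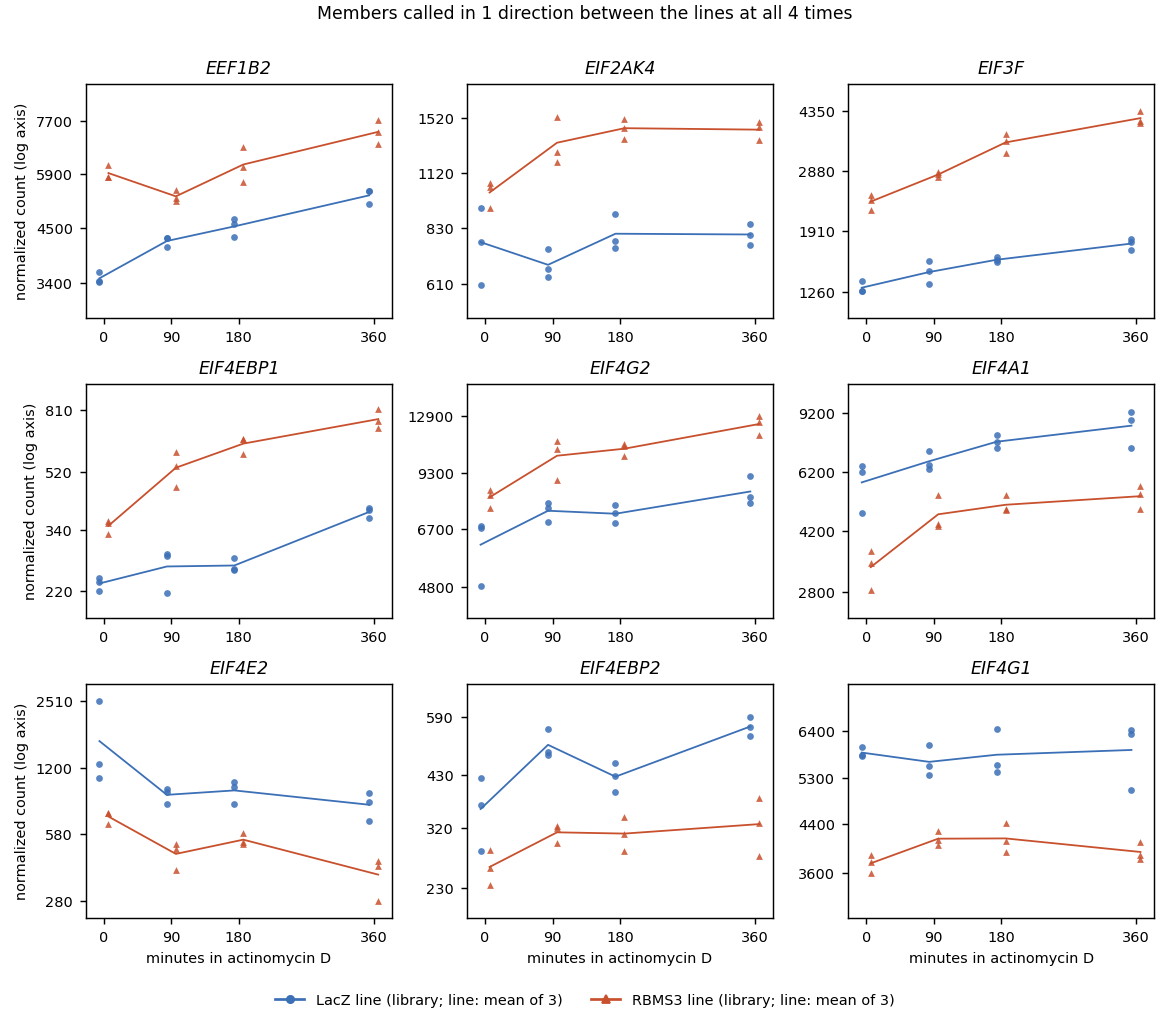
Normalized counts (log axis) in each library of the 9 members called in 1 direction at all 4 times, against minutes in actinomycin D, with circles for LacZ, triangles for RBMS3 and lines through the means of 3 libraries. EIF3F and EIF4G1 show no overlap between the lines at any time, while EIF2AK4 and EIF4EBP2 touch or overlap at 0 min.

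The 4E-BP genes split between the lines. EIF4EBP1, the best studied of the proteins that hold eIF4E away from eIF4G, read 220.2, 241 and 235 in LacZ and 360.0, 364 and 330.3 in RBMS3 cells at 0 min. By 360 min it had reached 373, 394 and 399 against 814, 715 and 749, and no library of one line reached the other at any time. Its log2 differences were 0.60, 1.03, 1.27 and 0.96 (SE 0.12, adjusted p at most 0.00032), and its length term was steady (1.01-fold).

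EIF4EBP2, its paralogue, read 363, 283 and 421 in LacZ and 257, 284 and 234 in RBMS3 cells at 0 min, overlapping by 1 library. It then stood apart, with 532, 559.9 and 591 against 378, 329 and 274 at 360 min. The differences were -0.45, -0.69, -0.45 and -0.79 (SE 0.14, adjusted p at most 0.017), and the calls at 0 and 180 min were each lost without library 3 of either line. EIF4EBP3 was higher at 90 min (0.88 ± 0.30, adjusted p = 0.033) and not called elsewhere. EIF4ENIF1, which carries eIF4E to processing bodies, showed differences from -0.17 to 0.26 (SE 0.36), none of them called.

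Of 14 genes of eIF3, the large complex that binds the small subunit, 6 were higher in RBMS3 cells at 0 min and 4 were lower. Of all genes tested, 18.6% were higher and 18.9% lower. The split of the 14 was 3 and 4 after rescaling to the ribosomal protein genes. EIF3F, a subunit of the MPN type, was the most separated. It read 1265, 1264 and 1356 in LacZ and 2200.2, 2358 and 2452 in RBMS3 cells at 0 min, and 1675, 1775 and 1807 against 4054, 4353 and 4016 at 360 min. Its differences were 0.85, 0.97, 1.16 and 1.24 (SE 0.07, adjusted p at most 3.5e-09), with no overlap at any time. Its reads could not be matched well enough to measure the length term.

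EIF3L read 934, 549 and 893 in LacZ and 2284, 1811 and 1703 in RBMS3 cells at 0 min, a difference of 1.31 ± 0.28 (adjusted p = 0.00078), and was not called later. EIF3I, a WD-repeat subunit, was called higher at 0 min by 0.73 ± 0.06 (adjusted p = 7.9e-09) and was not called later, but without LacZ 0 min library 2 it was called lower at 360 min (-0.15, adjusted p = 0.024). EIF3H and EIF3M were called higher at 0 min by 0.46 and 0.64, and both calls were lost without LacZ library 2 (0.14 and 0.24). EIF3K was higher by 0.24, and that call was lost without any of 4 libraries at 0 min.

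The 4 lower subunits at 0 min were EIF3A and EIF3B, the scaffolding subunits, with EIF3D, which can bind the cap, and EIF3G. EIF3A read 7534, 11399.6 and 7823 in LacZ and 5732, 5838 and 5196 in RBMS3 cells, a difference of -0.65 ± 0.12, or -0.46 without LacZ library 2. EIF3B read 2255, 2309 and 2155 against 1519, 1410.4 and 1433 (-0.62 ± 0.07, adjusted p = 6.8e-07). EIF3D and EIF3G had log2 differences of -0.27 and -0.42, the first call lost without RBMS3 library 1 and the second without that library or LacZ library 2. None of these 4 was called at 360 min, where EIF3A stood at -0.26 (adjusted p = 0.089). Without LacZ 0 min library 2, which narrows the shared spread, EIF3A was called lower at 360 min (-0.26, adjusted p = 0.01), and EIF3B and EIF3D were called higher there (0.19 and 0.20, adjusted p = 0.033 each).

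EIF3J, a loosely bound subunit that aids recycling, opened a gap during the drug. It read 2250.2, 2959 and 2446 in LacZ and 2755, 2370.2 and 2401 in RBMS3 cells at 0 min, fully overlapping. At 360 min it read 2114, 2179 and 1871 against 4298, 4109 and 3479.5. The differences were -0.02, 0.55, 0.81 and 0.94 (SE 0.13, the last 3 called, adjusted p at most 0.0027), and its length term varied by 1.57-fold. EIF3C and EIF3CL are near-identical copies whose reads the counting could split, and their summed value was higher in RBMS3 cells by 0.46, 0.44 and 0.45 at 90, 180 and 360 min (SE 0.10) and not called at 0 min. EIF3CL alone was called higher at 0 min without LacZ library 2 (0.35, adjusted p = 0.00037).

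**Figure D4:**
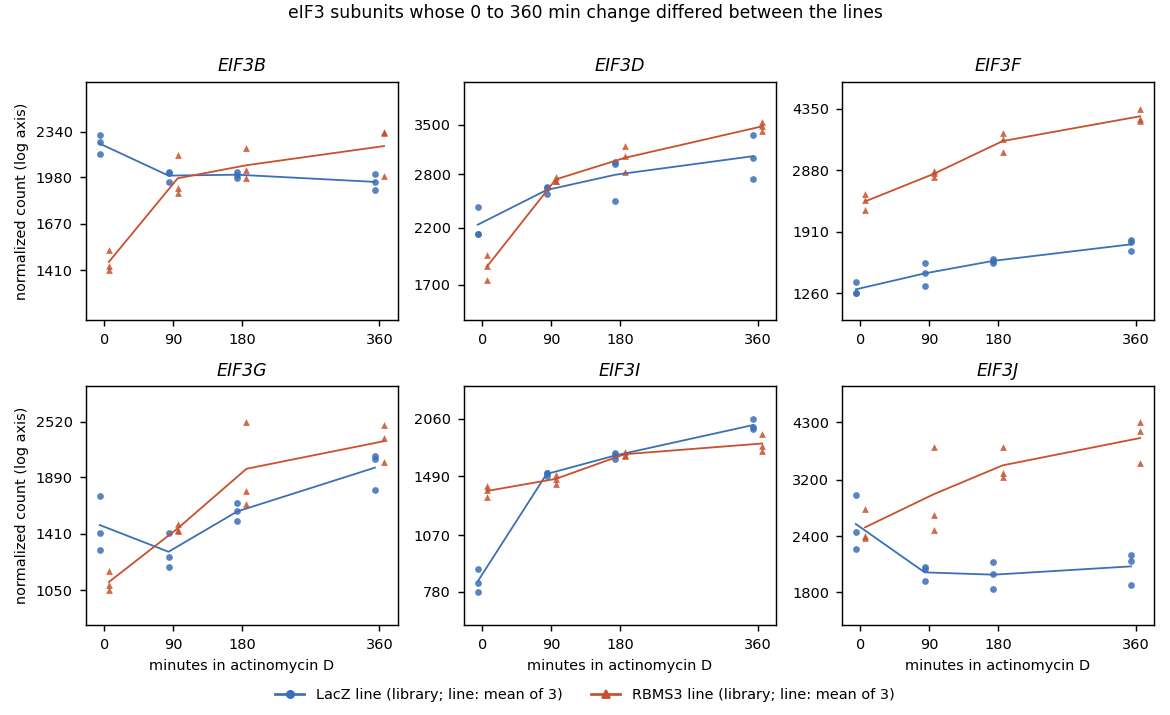
Normalized counts (log axis) in each library of the 6 eIF3 subunits whose change from 0 to 360 min differed between the lines, against minutes in actinomycin D. Circles are LacZ and triangles RBMS3 libraries, with lines through the means of 3; The EIF3I lines meet by 90 min, and the EIF3B lines, apart at 0 min, meet there too.

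Of 10 genes of eIF2, its exchange factor eIF2B and the related EIF2A and EIF2D, 5 were lower at 0 min and 1 was higher. Of all genes tested, 18.9% were lower and 18.6% higher. The split of the 10 was 6 and 0 after rescaling to the ribosomal protein genes. The calls of EIF2A, EIF2B3 and EIF2B5, among the 5, were lost without LacZ library 2. EIF2S1, the α subunit that the stress kinases phosphorylate, read 919, 981 and 873 in LacZ and 682, 661 and 756 in RBMS3 cells (-0.40 ± 0.12, adjusted p = 0.012). The length term of EIF2S1 varied by 1.735-fold. EIF2S2, the β subunit, read 7397, 8997 and 7633 against 6414, 6810.0 and 6501 (-0.28 ± 0.07) and was then higher in RBMS3 cells at 90 and 360 min by 0.22 and 0.20, calls that were each lost without any of 4 libraries. EIF2S3, the GTP-binding γ subunit, was called at 180 min only (-1.46 ± 0.39), and its length term varied by 2.26-fold.

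EIF2B5, the catalytic subunit of eIF2B, had the lowest difference of all members at 0 min and at 360 min, -1.56 ± 0.48 at both. It read 367, 644 and 456 against 299.9, 186 and 74.8 at 0 min, and the call was lost without LacZ library 2 (-1.34, adjusted p = 0.061) or RBMS3 library 3. The call at 360 min was lost under single-library omission too, and EIF2B5 was not called at 90 or 180 min. Its length term varied by 4.43-fold. From 90 to 360 min in RBMS3 cells its mean changed 0.47-fold in normalized counts and 0.93-fold in RPM. Its line difference was not tested on reads either. EIF2B2, a regulatory subunit, was higher at 0 min (0.65 ± 0.18), a call lost without RBMS3 library 2. EIF2B3 was lower by a log2 difference of -0.59, lost without any of 4 libraries, and EIF2B1 and EIF2B4 were not called at any time. EIF2A, an alternative initiator tRNA carrier, was lower at 0, 180 and 360 min (-0.57, -0.90 and -0.51), the first lost without LacZ library 2 and the last without any of 3 libraries. The length term of EIF2A varied by 2.148-fold.

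Among the 4 eIF2α kinases, EIF2AK4 (GCN2), which senses uncharged tRNA, was higher in RBMS3 cells at every time. It read 608, 927 and 767 in LacZ and 1061, 925 and 1037 in RBMS3 cells at 0 min, overlapping by 1 library of each line. At 360 min it read 754, 847 and 799.8 against 1439, 1487 and 1340.0, well apart. Its differences were 0.41, 0.96, 0.84 and 0.83 (SE 0.13, adjusted p at most 0.013), the first lost without library 1 of either line. EIF2AK2 (PKR), which senses double-stranded RNA, was lower by log2 differences of -0.39, -0.35 and -0.39 at 90, 180 and 360 min (SE 0.10), the second lost without LacZ library 1 or 3. The length term of EIF2AK2 varied by 1.62-fold. EIF2AK1 and EIF2AK3 (PERK) were not called between the lines.

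Of 7 start codon and subunit joining factors, 2 were lower at 0 min (18.9% of all genes) and 3 higher at 360 min (17.5%). After rescaling to the ribosomal protein genes 5 were lower at 0 min and 1 was lower at 360 min. EIF1, which guards start codon fidelity, was lower at 0 min (-0.14 ± 0.05) and higher at 360 min (0.15 ± 0.05), with calls lost without any of 3 and any of 4 libraries. EIF6, which keeps the large subunit from joining early, read 2229, 3052 and 2337 against 2106, 2145 and 2029 at 0 min (-0.26 ± 0.08, lost without LacZ library 2 or RBMS3 library 3). At 360 min it read 3259.7, 3564 and 3385 against 4226, 4214 and 4127 (0.30 ± 0.08), without overlap. EIF5, the GTPase activator for eIF2, was higher at 180 min (0.53 ± 0.13) and at 360 min (0.34 ± 0.13), the second lost without any of 15 libraries. EIF1AX, EIF1B, EIF1AD and EIF5B were not called between the lines. EIF1AX shares reads with a copy, EIF1AXP1, and their sum was lower in RBMS3 cells at 0 min by a log2 difference of -0.17 (adjusted p = 0.023).

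In the eEF1 group 2 of 5 were higher and 1 was lower at 0 min (18.6% and 18.9% of all genes). After rescaling to the ribosomal protein genes 1 was higher and 2 were lower. EEF1B2, the nucleotide exchange subunit, was higher in RBMS3 cells at every time. It read 3586, 3419.8 and 3438 in LacZ and 5812, 5803 and 6169.8 in RBMS3 cells at 0 min, and 5068, 5412 and 5408 against 7744, 7313 and 6852 at 360 min. The groups never overlapped, and the differences were 0.77, 0.33, 0.45 and 0.46 (SE 0.06, adjusted p at most 0.00054). EEF1G, its partner subunit, was higher by 0.42, 0.37 and 0.39 at 0, 90 and 360 min (SE 0.10), and by 0.62 at 0 min without LacZ library 2. EEF1D was called lower at 0 min (-0.43), and that call was lost without LacZ library 2 (-0.15). EEF1A1 was not called at any time, with differences from 0.06 to 0.42 (SE 0.19), but without LacZ library 2 it was called at 180 and 360 min. EEF1E1, a scaffold of the tRNA synthetase complex, was not called either, but without LacZ library 2 its difference at 0 min was -0.80 (adjusted p = 0.0016).

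EIF5A and EIF5AL1 encode near-identical proteins, and their split is uncertain. Their summed value was not called at 0 min (0.00 ± 0.16, adjusted p = 0.99), was lower in RBMS3 cells at 90 min (-0.50 ± 0.16, adjusted p = 0.026) and was not called at 180 or 360 min. At 0 min the sums were 6889, 3669 and 7057 in LacZ libraries 1 to 3 and 5495, 5429 and 6005 in RBMS3 cells. Without LacZ library 2, the difference at 0 min was -0.52 for EIF5AL1 (adjusted p = 0.0017) and -0.12 for EIF5A (adjusted p = 0.65). EIF5A2, a paralogue with an unsteady length term, was not called.

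Of 7 elongation factor modifiers, the methyltransferase genes EEF1AKMT1 and EEF1AKMT4 were lower at 0 min, where 18.9% of all genes were. EEF1AKMT1 read 105, 136 and 109.7 in LacZ and 79.4, 79.2 and 64.7 in RBMS3 cells (-0.64 ± 0.18), and EEF1AKMT4 read 59.7, 105 and 63.3 against 25.8, 36.8 and 37.0 (-1.15 ± 0.25). Neither overlapped between the lines, and EEF1AKMT4 was also lower at 180 and 360 min (-0.70 and -0.69), calls that were lost without any of 4 and any of 6 libraries. EEF2K and EEF1AKMT3 were called higher at 90 min only (1.62 ± 0.51 and 1.52 ± 0.43), and each call was lost without any of 2 libraries. EEF2KMT was higher at 90 and 360 min (0.88 and 0.86, SE 0.27), calls lost without any of 3 and any of 2 libraries.

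Actinomycin D leaves only existing transcripts to be measured, and the normalized counts are relative to the other mRNAs of a library, so a higher value need not be a larger amount. On that scale more members rose than fell. In LacZ cells 9 were higher and 1 lower at 90 min than at 0 min (3.44% and 2.74% of all genes), 18 and 5 at 180 min (7.75% and 6.87%), and 25 and 6 at 360 min (14.9% and 13.6%). In RBMS3 cells the counts were 16 and 1 at 90 min (7.99% and 6.52%), 25 and 2 at 180 min (13.5% and 12.4%), and 29 and 5 at 360 min (19.1% and 18.6%). The later comparisons of a line share its 0 min libraries, and in RBMS3 cells the fall of KRT5 and KRT14 after 0 min goes with them.

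In LacZ cells, and at 360 min in RBMS3 cells, the direction of these counts depended on the scaling. In RBMS3 cells it did not at 90 and 180 min, with 16 and 1, and 15 and 2, after rescaling to the ribosomal protein genes, and 15 and 2, and 18 and 2, after rescaling to equal totals. At 360 min the members' median log2 change was 0.22 in LacZ and 0.35 in RBMS3 cells, against 0.03 and -0.01 over all genes and 0.55 and 0.40 over 84 cytosolic ribosomal protein genes. After rescaling to those ribosomal protein genes, which moved the median of all genes to -0.49 and -0.39, the medians of the members were -0.31 and -0.04, and the counts at 360 min became 1 higher and 23 lower in LacZ and 13 and 16 in RBMS3 cells. After rescaling to equal totals they were 18 and 9, and 19 and 7, with medians over all genes of -0.15 and -0.22. Rescaling to the ribosomal protein genes also turned the split at 90 min in LacZ cells to 2 and 7 and that at 180 min to 1 and 11, and equal totals turned them to 7 and 2 and to 5 and 8. Where only a comparison's own 6 libraries were fitted, LacZ cells had 1 called member at 90 min, 3 at 180 min and 7 at 360 min.

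Of the members called higher at 360 min, 19 were called in both lines, which is 76% of those in LacZ and 65.5% of those in RBMS3 cells. Over all genes 1047 were, or 58.2% and 45.4%. They included 6 eIF3 subunits (EIF3D, EIF3E, EIF3F, EIF3G, EIF3I and EIF3K), with EIF4A1, EIF4G2, EIF4B and EIF4H. EIF1 was the most tightly measured. It read 4925, 4454 and 4519 at 0 min and 6807, 7144 and 6797 at 360 min in LacZ cells (0.58 ± 0.05), and 4173, 4102 and 4293 and 7883, 7625 and 7563 in RBMS3 cells (0.88 ± 0.05). EIF4EBP1 was higher by 0.74 and 1.11 (SE 0.12) and EIF1AX by 0.54 and 0.60 (SE 0.07).

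Called lower at 360 min in both lines were EIF2AK3, EIF4E2 and EEF1AKNMT, 50% of those in LacZ and 60% of those in RBMS3 cells. Over all genes 1137 were, or 69.2% and 50.7%. EIF2AK3 (PERK), the eIF2α kinase of the endoplasmic reticulum, fell furthest of the members in both lines. It read 82.0, 26.6 and 104 at 0 min and 17.4, 15.4 and 3.47 at 360 min in LacZ cells, and 55.8, 47.1 and 40.0 and then 3.79, 8.38 and 13.4 in RBMS3 cells. Those were log2 changes of -2.49 and -2.48 (SE 0.53, adjusted p of 0.0013 and 0.00087), at low counts and with no overlap in either line. The reads of EIF2AK3 could not be matched, so its length term is not known and its fall was not tested on reads. EIF4E2 fell by 0.91 and 0.94 on the log2 scale (SE 0.23), by 0.54 in LacZ cells without library 2. EEF1AKNMT, a methyltransferase of eEF1A, fell by 0.56 and 0.68 on that scale (SE 0.20), and its calls were lost without any of 3 libraries in LacZ and any of 2 in RBMS3 cells.

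Some changes were called in 1 line. EIF5 and EIF3A were lower at 360 min in LacZ cells (-0.50 and -0.60), with -0.04 and -0.21 in RBMS3 cells, and the difference between the lines was not past the test (adjusted p of 0.14 and 0.17). EIF4G3 and EIF4ENIF1 were lower in RBMS3 cells (-0.58 and -1.01), with -0.29 and -0.83 in LacZ cells, and again the difference was not past the test (adjusted p of 0.44 and 0.88). EEF2KMT was higher in RBMS3 cells by 1.23 ± 0.27, with 0.22 in LacZ cells and the difference between the lines not past the test (adjusted p = 0.11).

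From 90 to 360 min, a window without the 0 min libraries, 9 members were higher and 1 lower in LacZ (3.38% and 5.12% of all genes) and 12 and 2 in RBMS3 cells (7.62% and 8.35%). Rescaling to the ribosomal protein genes gave 0 and 6, and 0 and 19, and rescaling to equal totals gave 4 and 2, and 4 and 7. In RBMS3 cells this window could also be tested on estimated reads, over the 52 members whose table values were rebuilt from reads and length to within 5%. On the table limma called 10 of these, 9 of them higher. On the reads edgeR called 10, with 7 higher, and DESeq2 called 11, with 8 higher. By limma and edgeR 8 were called in the same direction. Over 12242 genes tested on the reads, edgeR called 681 higher and 1231 lower, and DESeq2 943 and 1360.

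The change from 0 to 360 min differed between the lines for 12 members, 10 of them with the larger value in RBMS3 cells (4.32% of all genes) and 2 with the smaller (3.46%). These calls use the 0 min groups, where the RBMS3 libraries also differed from the later ones in KRT5 and KRT14. For the change from 90 to 360 min, limma called no member different between the lines (3 of 64 at an unadjusted p under 0.05, no other tool run) and 0.00827% of all genes lower. In that window EIF3B differed by 0.20, EIF3J by 0.39 and EIF3I by -0.11 (adjusted p of 0.78, 0.75 and 0.93). EIF3B, one of the 10, had the smallest p among them. In LacZ cells it went from 2255, 2309 and 2155 to 2003, 1949.9 and 1889, a log2 change of -0.20 ± 0.07, a call lost on leaving out any of 5 libraries. In RBMS3 cells it went from 1519, 1410.4 and 1433 to 2329, 2340.0 and 1989.6, a change of 0.61 ± 0.07. The difference of 0.81 ± 0.10 (adjusted p = 3.6e-05) was called under each of the 24 single-library omissions.

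EIF3I was the opposite case. In LacZ cells it read 776, 885 and 817 before the drug, then 1493, 1518 and 1516 after 90 min, and at last 1942, 1962 and 2056 (1.27 ± 0.06 over 360 min). In RBMS3 cells it read 1414, 1378 and 1325, then 1471, 1430.2 and 1504, and at last 1890.1, 1766 and 1718 (0.38 ± 0.06). The difference was -0.88 ± 0.09 (adjusted p = 2.6e-06). By 90 min the log2 change was 0.87 in LacZ and 0.10 in RBMS3 cells. The reads of EIF3I could not be matched, so its length term is not known.

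EIF3J differed by 0.96 ± 0.18, EIF6 by 0.57 ± 0.12, EIF2S2 by 0.48 ± 0.10, EIF3D by 0.47 ± 0.11 and EIF1 by 0.30 ± 0.07, and with EIF3B and EIF3I these were the 7 called under every single-library omission. EIF6 read 2029 to 2145 at 0 min and 4127 to 4226 at 360 min in RBMS3 cells, a log2 change of 1.00 ± 0.08, against 0.44 in LacZ cells. EEF1AKMT1 (1.00), EIF3G (0.62), EIF2S1 (0.60), EIF3F (0.39) and EEF1B2 (-0.31) were called too, and each call was lost without at least 1 library. EIF3G and EIF2S1 lost theirs without LacZ library 2. Where only the 12 libraries at 0 and 360 min were fitted, 4 members were called.

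**Figure D5:**
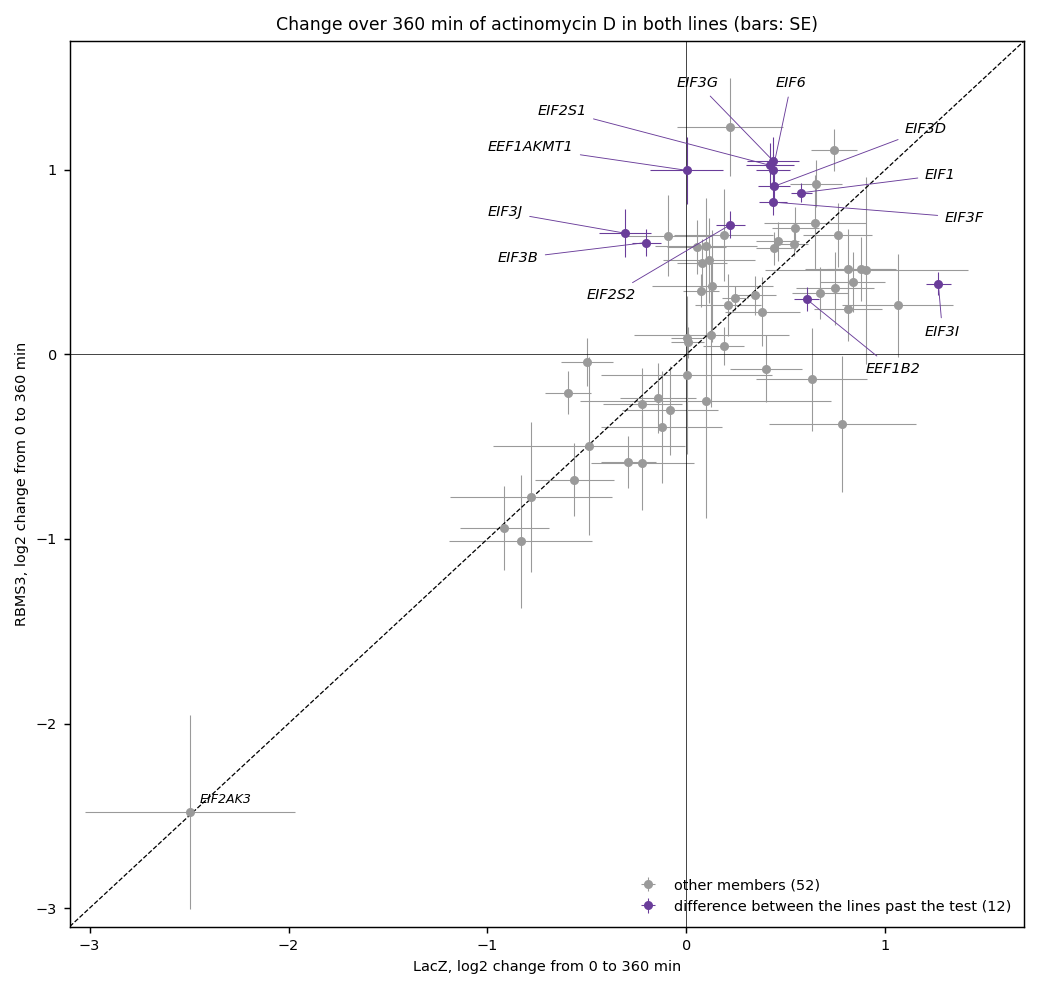
Log2 change in normalized counts from 0 to 360 min in LacZ (horizontal) and RBMS3 cells (vertical) for 64 members, with bars for SE, a dashed line of equal change, and the 12 members whose change differed between the lines in purple. EIF3I and EEF1B2 lie below the line, the other 10 lie above it, and EIF2AK3 lies far down on it.

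A straight line over all 4 times gave a slope that differed between the lines for 9 members, 8 with the larger value in RBMS3 cells (2.93% of all genes) and 1 with the smaller (2.24%). EIF3B (0.12 per hour), EIF3J (0.15) and EIF3I (-0.12) kept their call under each single-library omission. Over 90, 180 and 360 min alone, limma called no slope of a member different (3 at an unadjusted p under 0.05). By 90 min EIF3B had a log2 change of -0.17 in LacZ and 0.44 in RBMS3 cells, so its course was not an even slope.

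Beyond the members, 36 other translation genes split at 0 min into 5 higher in RBMS3 cells, 10 lower and the rest not called. Of all genes tested 18.6% were higher and 18.9% lower. The largest were GSPT2 (1.41), PDCD4 (0.71), MIF4GD (0.67) and DHX29 (0.55) among the higher, and DDX3X (-1.30), MKNK1 (-1.25), ABCF1 (-0.86) and MKNK2 (-0.85) among the lower. At 360 min against 0 min, 4 were higher and 4 lower in LacZ (14.9% and 13.6% of all genes) and 10 and 5 in RBMS3 cells (19.1% and 18.6%). PELO, a ribosome rescue factor, fell by 2.23 and 2.63 on the log2 scale, and PPP1R15A and PPP1R15B, which direct dephosphorylation of eIF2α, fell by 1.71 and 1.58 in LacZ and by 1.06 and 2.33 in RBMS3 cells. EEF2, the translocase, was higher by 0.53 in RBMS3 cells.

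Of 84 cytosolic ribosomal protein genes, 53 were higher in RBMS3 cells at 0 min and 7 were lower, with a median of 0.35. Over all genes 18.6% were higher and 18.9% lower, with a median of 0.01. From 0 to 360 min 73 of the 84 were higher in LacZ (14.9% of all genes) and 63 in RBMS3 cells (19.1%), and limma called none of them lower in either. Among the 8 members listed from textbook knowledge as bearing a TOP tract (EEF1A1, EEF1B2, EEF1D, EEF1G, EIF3E, EIF3F, EIF3H and EIF4B), 4 were higher and 1 lower at 0 min with a median of 0.42. The other 56 members had 9 higher and 18 lower with a median of -0.15. Without LacZ library 2 the calls of EIF3H and EEF1D were lost, as were those of EIF2A, EIF2B3, EIF2B5, EIF3G, EIF3M and EIF6 among the other 56. Rescaling to the ribosomal protein genes lowered the median of all genes at 0 min to -0.29. The tract search above found a tract at the RefSeq start of 1 of the 5 listed members that had an entry.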

How the data were processed

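The members and gene lists were chosen with earlier results of these data known. The submitters' processing notes name Salmon 1.4.0, DESeq2 1.32.0 and Trim Galore 0.6.6. The build was not given in the sources used here, nor was the annotation. The authors' deposited table holds a normalized signal per gene and library, called normalized counts here. The deposited transcript files hold estimated counts, per the file headers. The 12 transcript files whose name and recorded sample title differ were not used. The other 12 held 4426445 to 9856338 estimated reads per library, and were matched to genes through GENCODE gene annotation that may not be the authors' (95.2% to 95.7% of reads).

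Tests used limma 3.58.1 in R 4.3.3 on log2(value + 1), so fold changes of low genes are understated, over genes with a mean of at least 10. All 8 groups entered 1 fit, and p-values were Benjamini-Hochberg adjusted within each of 14 comparisons. The script was tested on simulated data. The rule for names lets every member be named and asks for the up to 8 called members with the largest change in each direction, those called at all 4 times, and all whose change differed between the lines. Rounded estimated counts were tested with edgeR 4.0.16 and DESeq2 1.42.0. Alternatives were the pseudocount, filter, scaling, fitted libraries, summed near-identical copies, replicate block and single-library omissions. Equal-total scaling, summed copies and 90 min as the first time were added after seeing the data.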

Additional observations from a re-analysis of the deposited data

Results flagged for a closer look

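The results singled out here are the members whose change over the drug differed between the lines by the test of the difference itself (limma, Benjamini-Hochberg adjusted over 12096 genes). For the log2 change from 0 to 360 min, RBMS3 minus LacZ, the values were 1.00 for EEF1AKMT1, 0.96 for EIF3J, 0.81 for EIF3B, 0.62 for EIF3G, 0.60 for EIF2S1, 0.57 for EIF6, 0.48 for EIF2S2, 0.47 for EIF3D, 0.39 for EIF3F and 0.30 for EIF1, with -0.31 for EEF1B2 and -0.88 for EIF3I. For the slope per hour they were 0.16 for EEF1AKMT1, 0.15 for EIF3J, 0.12 for EIF3B, 0.073 for EIF6, 0.068 for EIF3D, 0.066 for EIF3F, 0.063 for EIF2S2, 0.042 for EIF1 and -0.12 for EIF3I. Both measures use the same libraries, so the 9 members with both are not found independently. Both use the 0 min groups. With 90 min as the first time limma called 0 members by either measure, and 3 of 64 by each at an unadjusted p under 0.05. In that shorter window 0.00827% of all genes were called lower for the change, so the lack of calls cannot tell when the differences arose. The difference from 90 to 360 min was 0.27 for EIF3F, 0.39 for EIF3J and 0.45 for EEF1AKMT1, while EIF2S2 (-0.017), EIF6 (-0.021) and EEF1B2 (0.14) turned sign.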

How the results depend on the processing

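Rescaling to the ribosomal protein genes turned the sign of at least 50 values of single members, which are listed here. The list is not complete. Between the lines at 180 min, where no member is listed, 44 of 64 values were above 0 and the members' median went from 0.11 to -0.015. The log2 values between the lines at 0 min became EIF3K -0.062 and EIF4B -0.19. The log2 value between the lines at 360 min became EIF1 -0.014. The log2 values from 0 to 180 min in LacZ cells became EIF1AX -0.0061, EIF2S2 -0.098, EIF3D -0.023, EIF3F -0.068, EIF3K -0.0016, EIF4B -0.054 and EIF5B -0.31. The log2 values from 0 to 360 min in LacZ cells became EEF1AKMT1 -0.52, EEF1D -0.48, EEF1G -0.18, EIF2AK2 -0.34, EIF2AK4 -0.45, EIF2S1 -0.11, EIF2S2 -0.31, EIF3CL -0.45, EIF3D -0.086, EIF3F -0.092, EIF3G -0.093, EIF3K -0.088, EIF4B -0.28, EIF4G1 -0.52, EIF4G2 -0.069, EIF5B -0.52 and EIF6 -0.093. The log2 values from 0 to 360 min in RBMS3 cells became EEF1B2 -0.093, EEF1G -0.073, EIF2AK2 -0.35, EIF3CL -0.047, EIF3I -0.0091, EIF4B -0.089, EIF4G1 -0.33 and EIF5B -0.30. The log2 values from 90 to 360 min in LacZ cells became EIF1 -0.010, EIF3F -0.038, EIF3K -0.0011, EIF4B -0.32 and EIF5B -0.27. The log2 values from 90 to 360 min in RBMS3 cells became EEF1G -0.045, EIF1 -0.045, EIF1AX -0.23, EIF2AK2 -0.29, EIF2S2 -0.32, EIF3B -0.24, EIF3D -0.065, EIF3I -0.12, EIF5B -0.36 and EIF6 -0.0072. Without LacZ 0 min library 2, EEF1D from 0 to 180 min in LacZ cells turned to 0.27, and over the single-library omissions it lay between -0.21 and 0.27. The cause was not tested.

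Counts of called members also moved. Rescaling to the ribosomal protein genes gave 12 from 0 to 180 min in LacZ (23 before) and 17 in RBMS3 cells (27 before), and 6 from 90 to 360 min in LacZ cells (10 before). Rescaling to equal totals gave 13 and 6 for the LacZ pair. With only the groups compared, 13 were called between the lines at 0 min, 1, 3 and 7 at 90, 180 and 360 min against 0 min in LacZ cells, and 4 for the difference in change; such fits have fewer samples. With no filter on low values, 5 slopes differed. With 90 min as the first time, 0 slopes and 0 changes differed between the lines, and EEF1B2 (0.14), EIF2S2 (-0.017) and EIF6 (-0.021) turned sign in the difference in change, as did EIF2S2 in that of the slope (-0.0025). Those contrasts use fewer libraries.

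Leaving out 1 library at a time gave 26 to 33 called members between the lines at 0 min, 17 to 25 at 90 min, 15 to 26 at 180 min and 17 to 29 at 360 min. Against 0 min, LacZ cells gave 5 to 17, 11 to 23 and 27 to 32 at the later times, and RBMS3 cells 13 to 23, 21 to 31 and 27 to 43. From 90 to 360 min the ranges were 7 to 14 in LacZ and 10 to 23 in RBMS3 cells, for the slope 3 to 10 and for the difference in change 7 to 15. LacZ cells at 90 min had 5 without 90 min library 1 or 2, 6 without library 3, 17 without 0 min library 1 and 16 without 0 min library 3. At 180 min they had 11 without 180 min library 2 and 13 without library 3. RBMS3 cells from 90 to 360 min had 23 without LacZ 0 min library 2. The slope had 3 without RBMS3 360 min library 2, 4 without library 1, and 5 without LacZ 360 min library 1 or RBMS3 0 min library 3, and the difference in change had 7 without RBMS3 360 min library 2.

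With the replicate number as a block, 33, 22, 20 and 22 members were called between the lines at the 4 times, 13, 24 and 31 against 0 min in LacZ and 18, 27 and 36 in RBMS3 cells. The block gave 10 and 14 from 90 to 360 min, 9 slopes and 11 differences in change. Deviations of same-numbered libraries correlated at -0.111 to 0.116 over 84 pairs, so the numbers were not taken to pair the samples. Of the 24 libraries, 12 correlated best with their own number, as a hint from the data. The 3 libraries a group and the unsteady length term limit what small differences can be seen.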
